A study of Homo sapiens with 16 samples.

Results

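The genes described here encode the enzymes of sterol and fatty acid synthesis and the proteins that sense sterols. Many of these genes are described as targets of the sterol regulatory element-binding proteins (SREBPs). The members were chosen by name from pathway knowledge, 33 genes out of 60564 in the deposited table. All 33 were found, and 32 reached the abundance minimum of a CPM (reads per 1000000) of 1 and were tested among 16241 genes. They fall into 5 roles, with 7 genes of the mevalonate steps, 12 from squalene to cholesterol, 5 of sterol sensing and SREBP regulation, 1 of sterol transfer (STARD4) and 8 of fatty acid synthesis. ELOVL6, a fatty acid elongase, was the 1 member not tested, at a CPM of 0.476.

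The cells were THP-1, an established human monocytic leukaemia line, as control cells (labelled wild type) or with ALKBH5, an RNA m6A demethylase, knocked down. How ALKBH5 was knocked down, and whether the control carried a matching construct, is not given in the sources used here. Both genotypes received 4-thiouridine (4sU), a uridine analogue that enters new RNA, at 100 µM for 1 h. A chase in medium with 10 mM uridine followed, and cells were collected at 0, 1.5, 4.5 or 7.5 h. The table's columns for the knockdown begin with S and were assigned to it by elimination. Each of the 8 groups held 2 libraries of polyadenylated RNA, 16 in all. Nothing in the labels says that the 2 came from separate cultures, so the p-values may measure technical spread only.

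The value per gene and library is the T-to-C conversion rate, the share of T bases read as C, given here in percent. Incorporated 4sU is read as C, but other mismatches can add to the rate. No group went without 4sU, and whether a background was subtracted is not given in the sources used here. How much of a low or flat rate came from other mismatches was not tested. A rate is a share: loss of labelled RNA and synthesis of unlabelled RNA both lower it and cannot be told apart, and it says nothing of abundance. The number of bases behind each rate is unknown, so no counting interval is given. The library medians over tested genes ran from 0.25% to 0.556% in control and from 0.532% to 1.19% in knockdown, and 2.39% to 12.9% of tested genes were listed at 0 per library. ALKBH5 itself ranged from 0.0982% to 0.813% in control and from 0.108% to 3.31% in knockdown, rates that do not measure its level, so they do not check the knockdown. Of 9 monocytic markers 8 reached a CPM of 1, with LYZ at 1276 and MPO at 0.185. Of the other cell types' markers, 1 of 4 lymphoid, 1 of 3 erythroid, 1 of 3 epithelial and 2 of 3 hepatocyte genes did, the highest being ALB at 7.88, and CD3D, MS4A1, KLF1 and TTR were at 0.

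SREBPs are made as membrane precursors held in the endoplasmic reticulum by SCAP, their escort, and by INSIG proteins when sterols are plentiful. When sterols are low, SCAP carries the precursor to the Golgi. Cleavage there frees a transcription factor that enters the nucleus and switches on its target genes. SREBF2 encodes the form known mainly for sterol genes and SREBF1 the forms known mainly for fatty acid genes. Macrophage-lineage cells use the pathway to balance cholesterol made inside against cholesterol taken up.

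The knockdown libraries carried more conversions than the control libraries for nearly the whole set. By limma on log2(rate + 0.05), over all 4 times and with Benjamini-Hochberg adjustment at 0.05 across all tested genes, the rate was higher in knockdown for 29 of 32 members and lower for 0. The same test called 69.6% of all tested genes higher and 0.172% lower, so most of this count is shared with the transcriptome. In a fit of genes with a CPM of at least 5 only, 27 of 28 members and 9076 of 10549 genes were called higher. Among all 32 members the median difference was 1.35 log2, and that of all tested genes 1.02. DHCR7, TM7SF2 and SREBF1, which read 1.59, 0.92 and 0.59 log2, did not pass. In libraries rather than fits, both knockdown libraries stood above both control libraries at each of the 4 times for 18 of 32 members (56.2%), against 40.5% of all tested genes. At single times this held for 28, 28, 28 and 22 members at 0, 1.5, 4.5 and 7.5 h, against 71.1%, 74.3%, 68.2% and 58.9% of all tested genes. By limma on the group means, 16, 20, 19 and 15 members were higher at these times, against 35.6%, 38.9%, 38.3% and 33.5% of all tested genes.

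To set the members against this common shift of 1.05 log2, the median log2 rate of each library was subtracted from its genes, giving what is called a centred value. On this scale 2 of 32 members were higher in knockdown and 0 lower, against 1.45% of tested genes higher and 4.59% lower. The 2 were SQLE, at 0.40 log2 (SE 0.0605, limma adjusted p = 7.9e-04), and ACLY, at 0.52 log2 (SE 0.131, limma adjusted p = 0.03). Where genes of any abundance, most of them scarcely read, set the library medians, these turned to −0.28 and −0.17, with a common shift of 1.74. Without the adjustment 8 members were below 0.05, all higher (25%), against 7.06% of tested genes higher and 12.6% lower. The members' centred median was 0.30, with 23 of 32 estimates above 0, and that of all tested genes −0.02. At each single time the centred limma test called 0 members, against 0.548%, 0.511%, 0.727% and 1.1% of tested genes in either direction. At an unadjusted p under 0.05 there were 3, 2, 5 and 5 members, of which 1 (at 7.5 h) was lower, or 9.38%, 6.25%, 15.6% and 15.6%, against 9.45%, 8%, 11.1% and 15.8% of tested genes in either direction. By role the centred medians were 0.32 for the mevalonate steps, 0.36 from squalene to cholesterol, −0.05 for sterol sensing, 0.22 for STARD4 alone and 0.34 for fatty acid synthesis. The ranges overlapped, from −0.29 to 1.20 in the mevalonate steps and from −0.46 to 0.32 in sterol sensing, and the difference between roles was not tested.

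**Figure D1:**
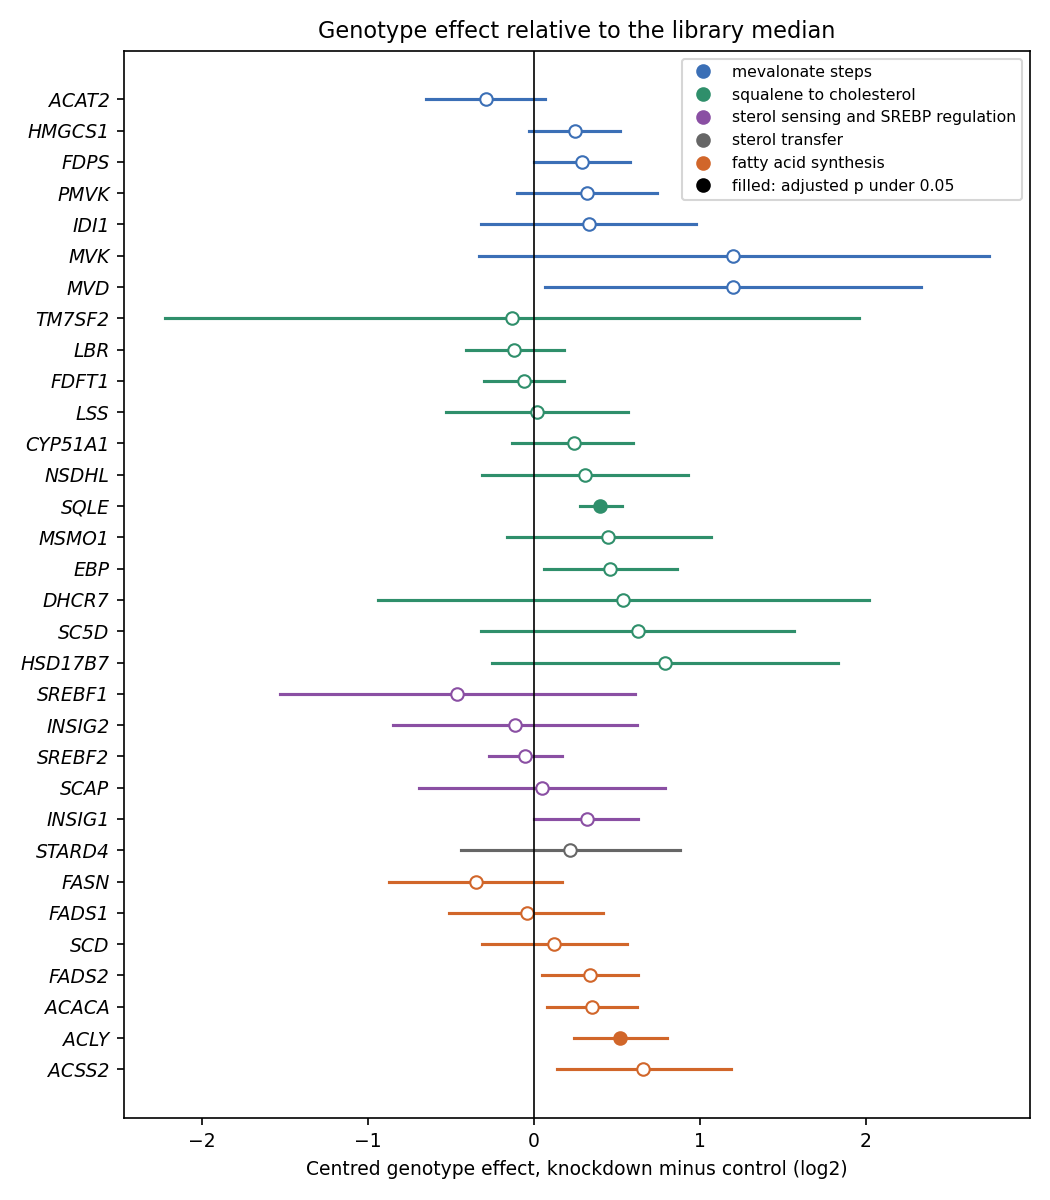
Centred genotype effect of the 32 tested members in log2 units on the horizontal axis, knockdown minus control, grouped by role (colour); points are limma estimates, bars their 95% intervals, and filled points have an adjusted p under 0.05. Only SQLE at 0.40 and ACLY at 0.52 are filled (−0.28 and −0.17 where genes of any abundance set the medians), and 23 of 32 points lie to the right of 0.

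Over the chase the rate fell for 9 members in control and rose for 0, against 34.4% of tested genes falling and 3.45% rising. In knockdown it fell for 9 and rose for 1, EBP, against 37.9% falling and 4.06% rising. The members' median slope was −0.06 log2 per hour in control and −0.09 in knockdown, against −0.11 and −0.13 over all tested genes. In the fit of genes with a CPM of at least 5, 9 of 28 members fell in each genotype, against 4644 and 5144 of 10549 genes. Among all 32 members, both counts of falling members also lie below the background as a share. Centred on the library medians, whose log2 rate fell by 0.136 per hour in control and by 0.15 in knockdown, 8 members rose and 1 fell in control, against 17.6% and 9.46% of tested genes. In knockdown 5 rose and 3 fell on that scale, against 17.7% and 8.62%. The 1 falling in control was IDI1, and the 3 in knockdown were MSMO1, SREBF1 and ACACA. On that scale SQLE, HMGCS1, FADS2, SREBF2 and INSIG1 were called in neither genotype. By libraries alone, both 7.5 h libraries lay below both 0 h libraries for 13 members in control (40.6%, against 49.8% of tested genes) and for 17 in knockdown (53.1%, against 57.5%). They lay above for 2 in control, FASN and PMVK (6.25%, against 11.8%), and for 3 in knockdown, EBP, MVK and PMVK (9.38%, against 13.2%). Of 32 members, 7 fell in both genotypes (ACACA, FADS2, HMGCS1, INSIG1, MSMO1, SQLE and SREBF2), 2 fell in control and were not called in knockdown (ACSS2 and IDI1), 2 fell in knockdown and were not called in control (FDPS and SREBF1) and 20 passed in neither. These joint patterns were not counted over all tested genes, so the 7 have no background share beside them. The difference between the slopes passed the limma test for 0 of 32 members and 0 of 16241 genes (percent called 0). Without adjustment, 2 members were below 0.05 upward and 2 downward, of 489 and 780 genes in all.

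**Figure D2:**
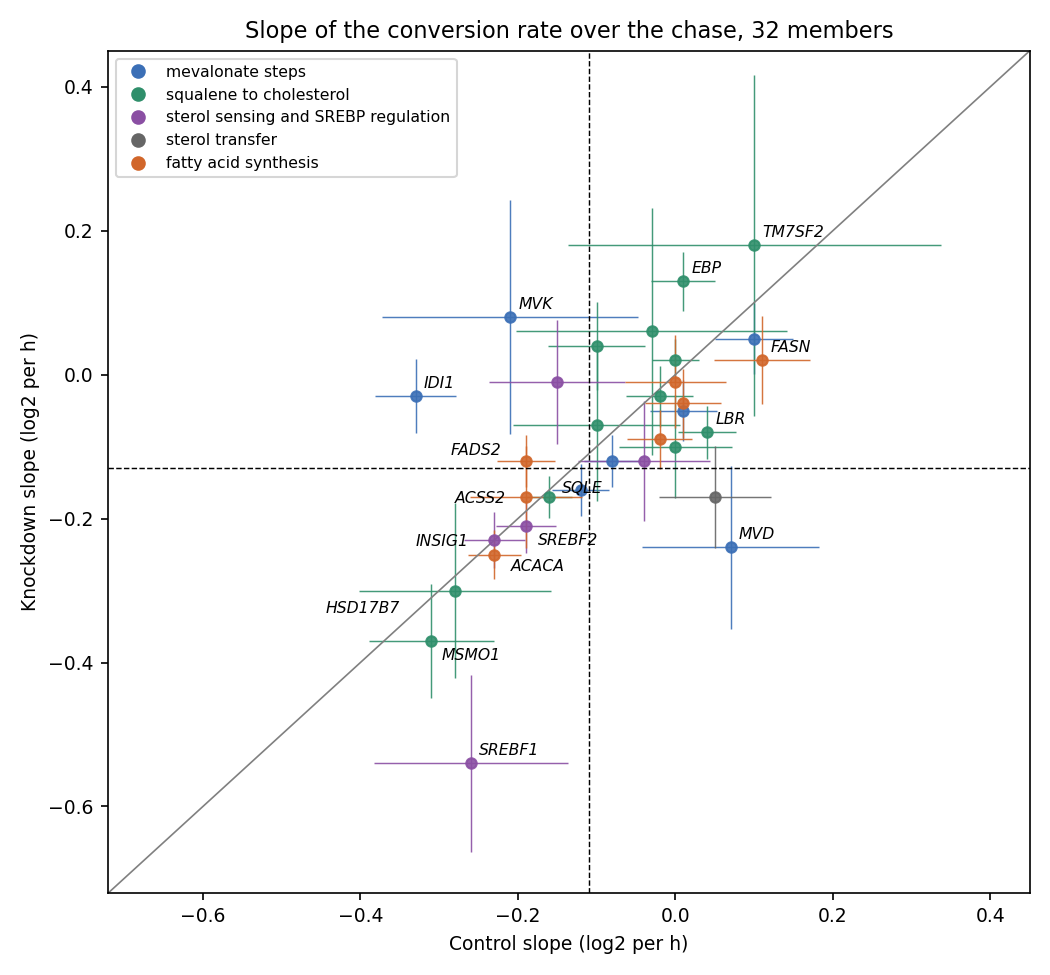
Slope of the log2 rate per hour of chase in control (horizontal) and knockdown (vertical) for the 32 tested members, coloured by role; bars are standard errors, the solid line marks equal slopes and the dashed lines the median slope of all tested genes. Most members lie near the solid line. Above it are IDI1 at −0.33 and −0.03, MVK at −0.21 and 0.08 and EBP at 0.01 and 0.13. Below it are MVD at 0.07 and −0.24, SREBF1 at −0.26 and −0.54 and STARD4 at 0.05 and −0.17. No member passed the test of the slope difference.

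Across the 32 members the slopes of the genotypes had a Pearson r of 0.562 and a Spearman rho of 0.504. Over all tested genes these were 0.518 and 0.607. The 2 slopes come from separate libraries but share the genes' base composition and abundance, and genes are not independent replicates.

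The mevalonate steps turn acetyl-CoA into farnesyl diphosphate, the last common precursor of sterols and isoprenoids. Over the 4 times all 7 members were called higher in knockdown, as were 69.6% of tested genes, with a range of 0.76 to 2.25 log2. In the centred limma test 0 passed, and 2, MVD and FDPS, were higher at an unadjusted p under 0.05. FDPS, farnesyl diphosphate synthase, has the highest CPM of them (192). Its rates in control were 0.315% with 0.363% before the chase (0 h), 0.412% with 0.256% by 1.5 h, 0.227% with 0.332% by 4.5 h and 0.183% with 0.238% by 7.5 h. Those of the knockdown libraries were 1.12% with 0.780%, 0.910% with 1.25%, 0.890% with 0.715% and 0.674% with 0.356% in that order. The genotypes did not overlap at any of the 4 times, and the difference was 1.34 log2 (SE 0.143, limma adjusted p = 1.2e-06), or 0.29 centred (adjusted p = 0.254). Its rate fell in knockdown at −0.12 log2 per hour (SE 0.0356, limma adjusted p = 0.0101), a call that ended without the second knockdown library at 7.5 h (−0.07, adjusted p = 0.136). In control the slope was −0.08 (adjusted p = 0.0955), and it passed when that same library was left out (adjusted p = 0.0494).

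ACAT2, the cytosolic thiolase that opens the pathway, passed the slope test in neither genotype, at 0.01 and −0.05 log2 per hour. Its control rates were 0.292% with 0.154% before the chase (0 h), 0.254% with 0.414% by 1.5 h, 0.299% with 0.219% by 4.5 h and 0.274% with 0.256% by 7.5 h. The knockdown libraries read 0.450% with 0.564%, 0.510% with 0.616%, 0.434% with 0.533% and 0.572% with 0.257% in that order. The genotypes overlapped at 7.5 h only, where the second knockdown library lay between the 2 control libraries. The genotype difference of 0.76 log2 (SE 0.170, limma adjusted p = 0.00112) was the lowest of this role, and centred it read −0.29 (adjusted p = 0.387). The exons of ACAT2 overlap those of TCP1 and SOD2 on the other strand, and whether strand was used in the counting is not given in the sources used here.

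The remaining members of the role, described in detail after their values were seen, include the smallest p for a slope difference among the members. IDI1, isopentenyl-diphosphate isomerase, had control rates of 0.770% with 0.925% before the chase (0 h), 0.807% with 1.12% by 1.5 h, 0.475% with 0.315% by 4.5 h and 0.252% with 0.0651% by 7.5 h. Knockdown libraries carried 1.16% with 1.29%, 1.49% with 1.51%, 1.18% with 1.70% and 1.41% with 0.862% in that order. So the mean at 7.5 h was 18.7% of that at 0 h in control and 93.2% in knockdown, and the ratio of the means, knockdown over control, was 1.44, 1.56, 3.65 and 7.19 at the 4 times. The slopes were −0.33 log2 per hour in control (SE 0.0512, limma adjusted p = 1.3e-04) and −0.03 in knockdown (SE 0.0512, adjusted p = 0.72). Their difference of 0.30 (95% interval 0.15 to 0.45) had a limma p of 7.7e-04 and an adjusted p of 0.305, so it did not pass across all genes. IDI1 shares exon sequence on the other strand with IDI2-AS1.

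HMGCS1, the synthase that makes HMG-CoA, fell in both genotypes. Its mean rate was 0.633% at 0 h and 0.320% at 7.5 h in control, and 1.54% and 0.688% in knockdown. The slopes were −0.12 log2 per hour in control (SE 0.0362, limma adjusted p = 0.0167) and −0.16 in knockdown (SE 0.0362, limma adjusted p = 0.00182). The control call ended without the second control library at 0 h (−0.11, adjusted p = 0.0514) and without the first at 7.5 h (−0.07, adjusted p = 0.164). PMVK, phosphomevalonate kinase, had both 7.5 h libraries above both 0 h libraries in each genotype, from 0.0872% and 0.141% to 0.182% and 0.327% in control and from 0.454% and 0.553% to 0.749% and 0.659% in knockdown. Its slopes of 0.10 and 0.05 did not pass, with limma adjusted p values of 0.127 and 0.495. Without the first control library at 7.5 h the control slope did pass (0.15, adjusted p = 0.0415). MVK, mevalonate kinase, and MVD, the decarboxylase, were listed at 0 in 3 and 2 control libraries, and each had an estimate of 2.25 log2 with an SE of 0.721 and 0.532. The zeros of MVK were all after 0 h. At 0 h its mean went the other way, 0.406% in knockdown against 0.584% in control. For MVK both 7.5 h libraries lay below both 0 h libraries in control and above them in knockdown, and the slope difference of 0.29 had a 95% interval of −0.20 to 0.78 (limma adjusted p = 0.806).

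From squalene to cholesterol 10 of 12 members were higher in knockdown, against 69.6% of tested genes, and 1, SQLE, passed the centred test, against 1.45% higher. SQLE, squalene epoxidase, makes the first oxygenated intermediate and is regarded as a second control point of the pathway. Its control rates were 0.518% with 0.570% before the chase (0 h), 0.586% with 0.567% by 1.5 h, 0.393% with 0.495% by 4.5 h and 0.206% with 0.205% by 7.5 h. The rates under knockdown were 1.63% with 1.58%, 1.67% with 1.73%, 1.29% with 1.27% and 0.623% with 0.646% in that order. The genotypes were apart at every time, and the ratio of the means was 2.95, 2.94, 2.88 and 3.09. The difference over all times was 1.45 log2 (95% interval 1.32 to 1.59, limma adjusted p = 1.2e-10). Leaving out each of the 16 libraries in turn kept the centred call, with estimates from 0.39 to 0.43 and adjusted p from 6.0e-04 to 0.00274.

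The rate of SQLE at 7.5 h was 37.7% of that at 0 h in control and 39.6% in knockdown. Slopes were −0.16 log2 per hour (SE 0.0293, limma adjusted p = 3.8e-04) and −0.17 (SE 0.0293, limma adjusted p = 2.1e-04). These correspond to fitted halvings of the rate in 6.06 h and 5.78 h, though the rates hardly moved before 1.5 h, so a single slope is a summary. The slope difference was −0.01, with a 95% interval of −0.10 to 0.08.

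FDFT1, squalene synthase, catalyses the step just before, and its rate was flat. Control rates were 0.491% with 0.449% before the chase (0 h), 0.448% with 0.509% by 1.5 h, 0.615% with 0.442% by 4.5 h and 0.358% with 0.586% by 7.5 h. With ALKBH5 knocked down they were 0.926% with 0.817%, 1.21% with 0.835%, 1.25% with 1.15% and 0.838% with 1.13% in that order. The genotypes did not overlap at any time, with a difference of 0.99 log2 (SE 0.112, limma adjusted p = 2.2e-06) and −0.06 centred (adjusted p = 0.834). Slopes were 0.00 and 0.02 log2 per hour, with 95% intervals of −0.06 to 0.06 and −0.04 to 0.09. Relative to the library medians, which fell, both were called upward, at 0.14 (limma adjusted p = 0.00402) and 0.17 (limma adjusted p = 5.6e-04).

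EBP, the sterol isomerase late in the pathway, was taken up in detail because its knockdown slope was the only uncentred slope called upward. In control the rates of EBP were 0.185% with 0.257% before the chase (0 h), 0.207% with 0.151% by 1.5 h, 0.276% with 0.241% by 4.5 h and 0.165% with 0.243% by 7.5 h. The matching knockdown values were 0.278% with 0.535%, 0.729% with 0.829%, 0.858% with 0.740% and 0.876% with 1.07% in that order. Thus all 6 knockdown libraries of the chase lay above both of 0 h, while the control libraries of 1.5, 4.5 and 7.5 h each overlapped those of 0 h. The knockdown slope was 0.13 log2 per hour (SE 0.0409, limma adjusted p = 0.0161) and the control slope 0.01 (adjusted p = 0.9). The call ended without the first knockdown library at 0 h (0.08, adjusted p = 0.0977) and without the second at 7.5 h (0.13, adjusted p = 0.0604). The slope difference of 0.12 had a 95% interval of 0.00 to 0.25 and a limma adjusted p of 0.632. In the centred genotype test EBP read 0.46 (adjusted p = 0.177) and passed without the first knockdown library at 0 h (0.61, adjusted p = 0.0281).

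MSMO1, the methylsterol oxidase, showed the steepest falls of this role that passed. In control MSMO1 read 0.738% with 0.876% before the chase (0 h), 0.481% with 0.585% by 1.5 h, 0.155% with 0.0766% by 4.5 h and 0.0611% with 0.331% by 7.5 h. Knockdown cells gave 1.90% with 2.17%, 1.84% with 2.36%, 0.523% with 0.704% and 0.506% with 0.187% in that order. The slopes were −0.31 log2 per hour (SE 0.0792, limma adjusted p = 0.00621) and −0.37 (SE 0.0792, limma adjusted p = 0.00134), and the genotypes overlapped only at 7.5 h. Relative to the library medians they were −0.17 (limma adjusted p = 0.111) and −0.22 (limma adjusted p = 0.0413). With a pseudocount of 0.01 the second was −0.24 and did not pass (limma adjusted p = 0.0747). LBR, whose protein has sterol reductase activity and also anchors the lamina, and CYP51A1, lanosterol demethylase, had slopes that passed in neither genotype. LBR read 0.04 in control and −0.08 in knockdown, and CYP51A1 −0.02 and −0.03. Exons of CYP51A1 overlap other annotated genes on both strands.

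The other members of this role were more scattered. LSS, lanosterol synthase, NSDHL, a sterol dehydrogenase, and SC5D, a desaturase, had genotype differences of 1.07, 1.36 and 1.68 log2 with SEs of 0.248 to 0.442, all called. HSD17B7, a sterol ketoreductase, read 1.84 (limma adjusted p = 0.00421), was listed at 0 in 1 library and has the near copy HSD17B7P2, so its reads may be shared. Its slopes of −0.28 in control (adjusted p = 0.0787) and −0.30 in knockdown (adjusted p = 0.0582) did not pass. Without the second control library at 7.5 h the control slope passed (−0.43, adjusted p = 0.0179). The knockdown slope passed without that library, the first control library at 4.5 h, the first knockdown library at 4.5 h or the second at 7.5 h (adjusted p from 0.0318 to 0.0433). TM7SF2, a sterol reductase, was listed at 0 in 5 libraries and shares exon sequence with VPS51 on the same strand. DHCR7, which catalyses the last reduction to cholesterol, was listed at 0 in 2 libraries, and its 1.59 log2 (95% interval 0.12 to 3.05, limma adjusted p = 0.0509) passed when any 1 of 6 libraries was left out. These were the first control library at 0, 1.5, 4.5 and 7.5 h and the second knockdown library at 1.5 and 4.5 h, with adjusted p from 0.0218 to 0.0424.

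**Figure D3:**
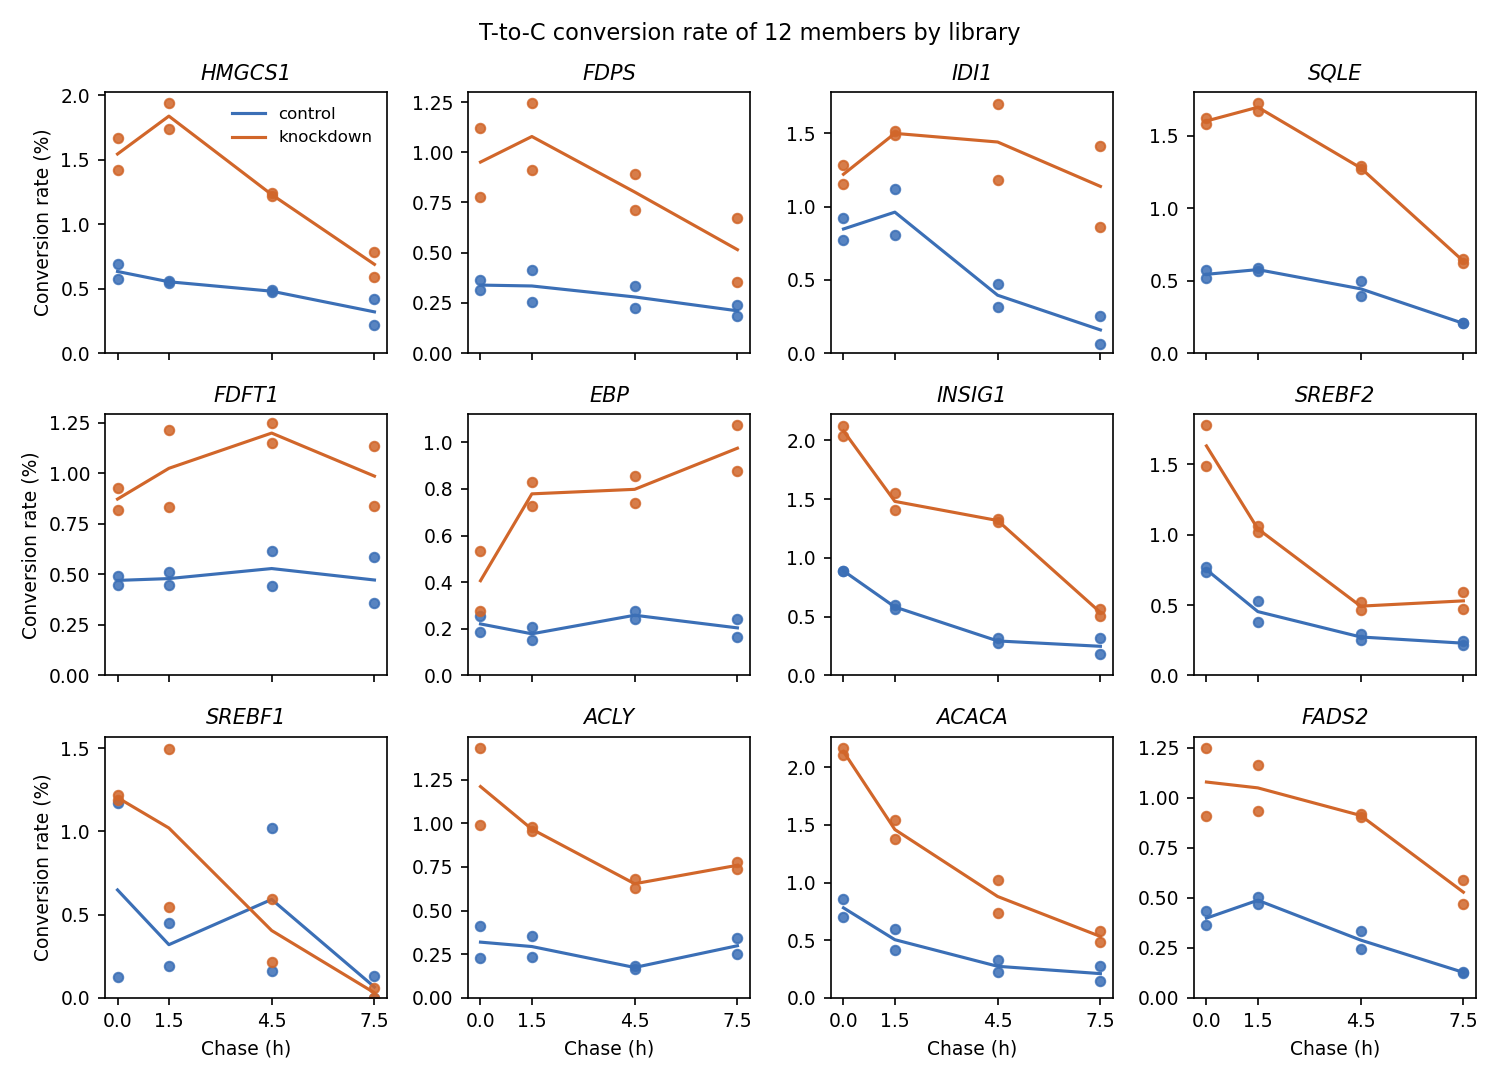
T-to-C conversion rate in percent (vertical) against hours of chase (horizontal) for 12 members; each point is a library, lines join the means of the 2 libraries of a genotype, and each panel has its own scale from 0. SQLE, INSIG1, SREBF2 and ACACA fall in both genotypes, IDI1 falls in control while its knockdown points stay between 0.862% and 1.70%, and EBP rises in knockdown.

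Among the 5 sterol sensing genes 4 were higher in knockdown, against 69.6% of tested genes, and 0 passed the centred limma test, with 0 at an unadjusted p under 0.05. INSIG1, which holds the SCAP complex in the endoplasmic reticulum and is itself an SREBP target, had control rates of 0.892% with 0.887% before the chase (0 h), 0.596% with 0.569% by 1.5 h, 0.273% with 0.314% by 4.5 h and 0.181% with 0.315% by 7.5 h. Those of the knockdown libraries were 2.12% with 2.04%, 1.41% with 1.55%, 1.30% with 1.33% and 0.569% with 0.503% in that order. The genotypes were apart throughout, and every later library lay below those of 0 h. Slopes were −0.23 log2 per hour in both genotypes, with limma adjusted p values of 2.5e-04 and 2.2e-04. The 95% interval of the slope difference was −0.11 to 0.12. The genotype difference was 1.36 log2 (SE 0.156, limma adjusted p = 2.3e-06), or 0.32 centred (adjusted p = 0.256).

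SREBF2 also fell in both genotypes. Its control rates were 0.734% with 0.767% before the chase (0 h), 0.529% with 0.378% by 1.5 h, 0.292% with 0.255% by 4.5 h and 0.216% with 0.243% by 7.5 h. The knockdown libraries read 1.78% with 1.48%, 1.02% with 1.06%, 0.466% with 0.518% and 0.589% with 0.470% in that order. The rate at 7.5 h was 30.5% of that at 0 h in control and 32.5% in knockdown, with slopes of −0.19 log2 per hour (SE 0.0383, limma adjusted p = 8.6e-04) and −0.21 (SE 0.0383, limma adjusted p = 3.7e-04). The genotypes did not overlap at any time, and the difference of 1.00 log2 (SE 0.103, limma adjusted p = 8.2e-07) was close to the common shift, at −0.05 centred (95% interval −0.27 to 0.17).

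SREBF1 was far more scattered. Its control rates were 0.124% with 1.17% before the chase (0 h), 0.448% with 0.191% by 1.5 h, 0.161% with 1.02% by 4.5 h and 0 with 0.130% by 7.5 h. Knockdown libraries carried 1.19% with 1.22%, 0.546% with 1.49%, 0.592% with 0.217% and 0 with 0.0603% in that order. The 2 control libraries of 0 h and of 4.5 h stood far apart, and the genotypes overlapped at 4.5 and 7.5 h. The knockdown slope was −0.54 log2 per hour (SE 0.123, limma adjusted p = 0.00229), the steepest among the members. The control slope of −0.26 (adjusted p = 0.112) passed without the first control library at 0 h (−0.38, adjusted p = 0.0313) or the second at 4.5 h (−0.30, adjusted p = 0.0338). The slope difference was −0.28, with a 95% interval of −0.65 to 0.09. Exons of SREBF1 overlap RAI1 on the other strand.

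SCAP and INSIG2, the other INSIG protein, passed neither slope test. SCAP was 1.10 log2 higher in knockdown (SE 0.352, limma adjusted p = 0.0123) and INSIG2 0.93 (SE 0.346, limma adjusted p = 0.0257). The INSIG2 call ended when the second control library at 0 h or at 1.5 h, the first control library at 4.5 h or the second knockdown library at 4.5 h was left out (0.72 to 0.83, adjusted p from 0.0546 to 0.0577). STARD4, a soluble carrier that moves sterols between membranes, was 1.27 log2 higher in knockdown (SE 0.319, limma adjusted p = 0.00263). Its slopes were 0.05 in control and −0.17 in knockdown (limma adjusted p = 0.0684; 0.0309 without the second knockdown library at 1.5 h), and their difference of −0.22 had a 95% interval of −0.43 to −0.01 and an adjusted p of 0.62.

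In fatty acid synthesis all 7 tested members were higher in knockdown, against 69.6% of tested genes, from 0.70 to 1.71 log2. Centred, 1 of 7 was called, against 1.45% higher. ACLY, ATP-citrate lyase, makes the cytosolic acetyl-CoA that feeds both branches. Its control rates were 0.228% with 0.410% before the chase (0 h), 0.355% with 0.232% by 1.5 h, 0.184% with 0.164% by 4.5 h and 0.345% with 0.252% by 7.5 h. The rates under knockdown were 1.43% with 0.988%, 0.955% with 0.977%, 0.628% with 0.679% and 0.740% with 0.778% in that order. The lowest knockdown library, at 0.628%, was above the highest control library, at 0.410%, whatever the time. The difference was 1.57 log2 (95% interval 1.27 to 1.86, limma adjusted p = 1.5e-07). The centred call, 0.52, was near the threshold. It ended in 9 of 16 fits with 1 library left out, those without the first control library at 0 h, the second at 1.5, 4.5 or 7.5 h, the first knockdown library at 0 h, or either knockdown library at 1.5 or 4.5 h. Over all 16 such fits the centred estimate ran from 0.43 to 0.57 and the adjusted p reached 0.0642. Neither slope passed, at −0.02 (adjusted p = 0.686) and −0.09 (adjusted p = 0.0995).

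ACACA, acetyl-CoA carboxylase 1, commits acetyl-CoA to fatty acids, and its rate fell in both genotypes. Control rates were 0.859% with 0.703% before the chase (0 h), 0.598% with 0.411% by 1.5 h, 0.223% with 0.324% by 4.5 h and 0.275% with 0.145% by 7.5 h. With ALKBH5 knocked down they were 2.11% with 2.17%, 1.54% with 1.38%, 0.740% with 1.02% and 0.584% with 0.482% in that order. The genotypes did not overlap at any time. Slopes were −0.23 (SE 0.0339, limma adjusted p = 8.6e-05) and −0.25 log2 per hour (SE 0.0339, limma adjusted p = 2.8e-05), which are fitted halvings in 4.42 h and 4 h. Relative to the library medians, which also fell, they were −0.09 (limma adjusted p = 0.0569) and −0.10 (limma adjusted p = 0.0374). Centred, the genotype difference was 0.35 (adjusted p = 0.131), and it passed without the first control library at 7.5 h (0.43, adjusted p = 0.045).

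FASN, the synthase that follows, passed the slope test in neither genotype. Its mean rate was 0.274% at 0 h and 0.477% at 7.5 h in control, where both late libraries lay above both early ones, and 0.672% and 0.577% in knockdown, where they overlapped. The slopes were 0.11 (limma adjusted p = 0.161) and 0.02 (adjusted p = 0.849). Relative to the falling library medians the control slope was called upward, at 0.25 log2 per hour (limma adjusted p = 0.00794). Its genotype difference of 0.70 log2 (SE 0.246, limma adjusted p = 0.0198) was the smallest among the members called.

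The 3 desaturases differed among themselves in time course. FADS2, the delta-6 desaturase, fell in both genotypes, from a mean of 0.398% to 0.127% in control and from 1.08% to 0.528% in knockdown. Its slopes were −0.19 (SE 0.0367, limma adjusted p = 6.1e-04) and −0.12 log2 per hour (SE 0.0367, limma adjusted p = 0.0122), the second lost without the second knockdown library at 7.5 h (−0.10, adjusted p = 0.0957). FADS1, the delta-5 desaturase, and SCD, stearoyl-CoA desaturase, had slopes between −0.04 and 0.01 that did not pass. FADS1 and FADS2 overlap each other on opposite strands, and FADS2 also overlaps FEN1 on its own strand. The differences between the desaturases were not tested.

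ACSS2, which makes acetyl-CoA from acetate, was 1.71 log2 higher in knockdown (SE 0.249, limma adjusted p = 2.5e-05), the largest difference of its role. Its control slope of −0.19 (limma adjusted p = 0.0419) was lost in 9 of 16 fits with 1 library left out. These were the fits without either control library at 0 or 1.5 h, the first at 4.5 h, the second at 7.5 h, or the second knockdown library at 0, 1.5 or 4.5 h, with adjusted p from 0.0502 to 0.123. The knockdown slope was −0.17 (adjusted p = 0.0665), and it passed without the second control library at 4.5 h, the first at 7.5 h, the first knockdown library at 0 h or the second at 7.5 h (adjusted p from 0.0271 to 0.044). Centred, the genotype difference of 0.66 (adjusted p = 0.141) passed without the first knockdown library at 7.5 h (0.82, adjusted p = 0.0485). ELOVL6, not tested, was listed at 0 in 5 of 16 libraries and reached 7.69% in another, in a gene with very few reads.

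**Figure D4:**
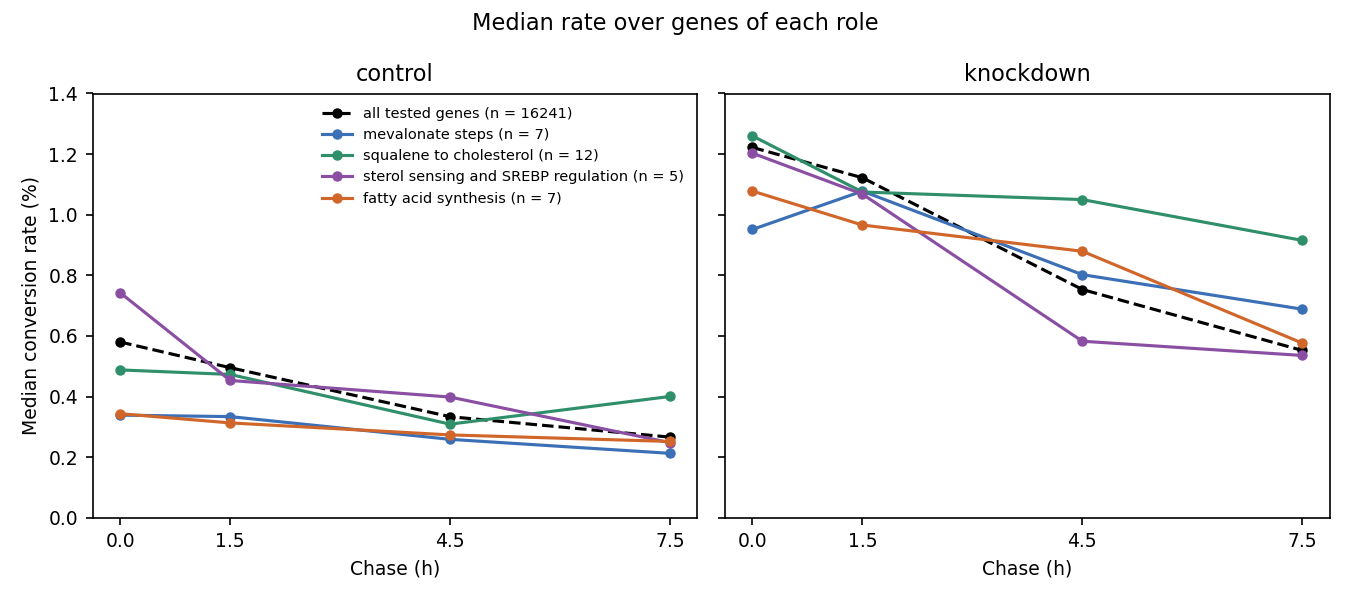
Median over the tested genes of each role of the mean conversion rate in percent (vertical) against hours of chase (horizontal), in control (left) and knockdown (right); the dashed line is the median of all tested genes and STARD4, a role of 1 gene, is left out. From 0 to 7.5 h in control, the sterol sensing genes go from 0.743% to 0.248% and all tested genes from 0.580% to 0.266%. The genes from squalene to cholesterol go from 0.488% to 0.400%, with 0.309% at 4.5 h. Differences between the roles were not tested.

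Promoters were read because many of these genes are described as SREBP targets, which was not checked here for each member. The windows are RefSeq sequences of GRCh38.p14, searched on both strands over 250 bases before the annotated start, and 29 of 33 members had one (not ACAT2, SQLE, FASN or FDFT1). The exact letters TCACNCCAC, a strict form of the sterol regulatory element, were in 1 of 29 (3.45%), against 1.2% of 10803 tested genes. CCAAT, the box bound by NF-Y, was in 20 (69%) against 41.6%. GGGCGG, a GC box, was in 27 (93.1%) against 70.9%, and the E-box CACGTG was in 3 (10.3%; INSIG1, SC5D and SCAP) against 11.2%. A match is a description of letters, not of binding, and no match says only that these letters are not in the window.

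The 1 match to the strict sterol element was in SREBF2, whose own promoter is shown for it, at chr22:41832942-41833010 on the plus strand, with the element in capitals. It begins 133 bases before the start, and a CCAAT box, read on the other strand as attgg, lies 27 bases away.
SREBF2: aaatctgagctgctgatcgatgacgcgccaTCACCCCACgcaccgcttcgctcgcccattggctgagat

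Of the 7 members falling in both genotypes, 6 had a window and 5 of these held a CCAAT box. Of all members with a window 69% held this box, as did 41.6% of tested genes. A gene with more than 1 window was counted if any of them held it. ACACA had a box in another window, at chr17:37299887-37299915, which is not shown. The stretches around the boxes of 4 of the 5 members are shown with the box, or ATTGG where it reads on the other strand, in capitals. They lie at chr5:43313496-43313524 (minus strand, HMGCS1), chr4:165327623-165327651 (plus strand, MSMO1), chr7:155297696-155297724 (plus strand, INSIG1) and chr17:37359306-37359334 (minus strand, ACACA).
HMGCS1: ctaccggccgcgATTGGctgtgggagcca
MSMO1: agctctcgcaggCCAATaacgacaggacg
INSIG1: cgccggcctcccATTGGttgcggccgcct
ACACA: cgccgccctcccATTGGctgccgctgagc

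Since ALKBH5 acts on m6A, the letters GGACT, the most common context of that mark, were counted in the longest coding transcript of each gene in GENCODE 29. The members held a median of 0.801 per kb (0 to 2.34, n = 32), against 0.922 per kb in 12335 tested genes. INSIG1, MSMO1 and ACSS2 held none, while EBP held 2.25, PMVK 2.34 and LSS 2.23 per kb. Methylation itself was not measured in these libraries.

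Around these genes, 5 further lists cover the rest of the pathway, 64 genes of which 61 were tested. By limma 47 of 61 were higher in knockdown and 0 lower, against 69.6% and 0.172% of all tested genes. Centred, 0 were higher and 5 lower, against 1.45% and 4.59%. At an unadjusted p under 0.05 these were 2 and 10 (3.28% and 16.4%), against 7.06% and 12.6%. Their rates fell for 25 in control and 30 in knockdown and rose for 1 and 2, against 34.4% and 37.9% of all tested genes falling and 3.45% and 4.06% rising. Their median slopes were −0.12 and −0.14 log2 per hour. The centred medians were 0.20 for further sterol synthesis genes and SREBP targets, 0.05 for SREBP cleavage and sterol-regulated degradation, −0.15 for the isoprenoid branches, −0.42 for LXR (the oxysterol receptor) with sterol efflux and storage, and 0.14 for fatty acid elongation, activation and glycerolipids. In the LXR list all 9 centred estimates were below 0, against 52.6% of all tested genes, and 3 passed, against 4.59%. These were NR1H2, which encodes LXR beta (−0.78, limma adjusted p = 0.0047), NPC2, a lysosomal sterol carrier (−0.64, limma adjusted p = 0.0132), and LIPA, the lysosomal acid lipase (−0.76, limma adjusted p = 3.2e-06). Among the further sterol synthesis genes ACAT1, the mitochondrial thiolase, passed (−0.74, limma adjusted p = 0.0104). A negative centred value is a smaller gain than that of the library median: uncentred these 4 genes read 0.27 to 0.41 log2 higher in knockdown, and of them NPC2 and LIPA passed.

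Where no gene of a list passed, the 2 of highest CPM are given. For the isoprenoid branches these were ZMPSTE24, a prenyl-protein protease, at 0.05 centred (adjusted p = 0.809) and DHDDS, a dolichol synthesis subunit, at 0.06 (adjusted p = 0.907). For fatty acid elongation they were TECR, an enoyl-CoA reductase, at 0.11 (adjusted p = 0.789) and ELOVL1, an elongase, at 0.01 (adjusted p = 0.979).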

How the data were processed

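The T-to-C conversion rates were deposited as a fraction per gene and library, made by the authors with CASAVA, HISAT2 2.1.0 and the hg38 build per the submitters' processing notes, and are given here in percent. The sources used here do not say how rates were computed from reads or with which annotation. The deposited CPM column, per the file headers, names no library and served only for the minimum of 1 and the variance trend. Columns starting with S were taken as knockdown by elimination, since C is the initial of control.

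The values are rates, so a count test was not used. The tests are limma (version 3.58.1, R 4.3.3) on log2(rate in percent + 0.05), with a variance trend in log2(CPM + 0.01), over all 16 libraries, and adjusted by Benjamini-Hochberg at 0.05 over 16241 genes with a rate above 0 in any library; all adjusted p values are from these fits. The genotype effect is the knockdown less the control, adjusted for the 4 times as levels, slopes are per hour in each genotype, and single times come from 8 group means. A fold on this scale understates changes of low rates. The scripts were tested on simulated data. Other pseudocounts, CPM minimums, a fit without the trend, a replicate block and leaving out each library were tried.

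Members and lists were chosen with earlier results of these data known. Every tested member is named, with rates per library for the 2 of highest CPM in each role of more than 1 gene, for INSIG1, SREBF1 and SREBF2, and for those past the centred threshold. IDI1, EBP and MSMO1 were given in full after their values were seen. From the other lists, genes past the centred threshold are named, or the 2 of highest CPM; 1 such gene stayed in the tests and counts and is not reported here. Gene positions and overlaps come from GENCODE 29, with all 33 members matched.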

Additional observations from a re-analysis of the deposited data

How the results depend on the processing

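The 29 members called higher in knockdown (28 to 30 with 1 library left out) and the 9 and 10 called in the control and knockdown slopes (7 to 10 and 9 to 11) stayed within 1.5 times of these counts in every alternative run. Over all member results, 8 of 320 turned under 1 alternative, no CPM minimum, which tests 37510 genes and lets genes with few reads set the library medians: centred, SQLE read −0.28 and ACLY −0.17 over all times, and at 7.5 h HMGCS1 read −1.37, FDPS −1.34, FDFT1 −1.40, SQLE −0.99, INSIG1 −1.40 and SREBF2 −1.36. With no minimum the centred calls were 5 members (all lower) and 5781 genes for genotype, and 14 members and 5445 genes for the control slope. They were 3 members and 1653 genes for the knockdown slope, 17 genes at 0 h, and 13 members and 7511 genes at 7.5 h. An alternative chosen after seeing the data had no minimum but medians set by genes with a CPM of at least 1. Centred in this way, SQLE read 0.40 (limma adjusted p = 0.00351) and ACLY 0.52 (adjusted p = 0.0689). It left 1 member and 695 genes for genotype, 3 members and 3595 genes for the knockdown slope, and 119 genes at 7.5 h. Without the variance trend the centred calls were 1 member and 813 genes for genotype (ACLY had a limma adjusted p of 0.0521). They were 4 genes at 0 h and 86 at 7.5 h, and the uncentred slope difference called 1 gene. A pseudocount of 0.01 gave 53 genes at 0 h, one of 0.2 gave 423 there and 1668 over all times, and a CPM minimum of 5 gave 140 at 0 h, against 89, 982 and 89, centred; the cause was not tested.

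With 1 library left out, the centred genotype test called 1 to 3 members and the centred knockdown slope 4 to 9. At 7.5 h it called 0 to 1 members and 62 to 226 genes, against 179, and at 0 h 42 to 106 genes. The slope difference, centred or not, called 0 to 2 genes, the 2 without the second control library at 7.5 h. Deviations of same-numbered libraries correlated between −0.0239 and 0.0396 over 28 pairs of groups, none over 0.1. No pairing by replicate number was seen in them. They were taken relative to each library's median, so a shift common to all genes of a library would not show. With the replicate block the genotype effect called 30 members, DHCR7 being added (limma adjusted p = 0.00682), and 2 centred, beside 11319 and 901 genes. The slopes called 9 and 10 members, beside 6076 and 6772 genes. The unknown number of bases behind each rate limits what the low rates can show.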
